A study of Mus musculus with 6 samples.

Results

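The genes described here are 10 regulators of transcription in endothelial cells, the cells that line blood vessels: the SoxF factors Sox7, Sox17 and Sox18, the ETS factors Erg, Fli1 and Ets1, the factors Tal1 and Gata2, and the cofactors Ldb2 and Lmo2. Their RNA was measured in 6 mouse hearts, 3 from Cav1 knockout and 3 from wild-type male mice of 5 to 6 months that had fasted for 6 hours. The product of Cav1, caveolin-1, coats caveolae, small pits of the cell membrane that are abundant in endothelial cells. The strain, the deleted part of Cav1 and whether any mice were pooled are not given in the sources used here, and each p-value rests on the spread between these hearts, which may in part be technical. Each heart had 1 Affymetrix array, and a gene is read by 1 or more probe sets. Every probe set that the array annotation assigns to exactly 1 symbol, that symbol being 1 of the 10 genes, was kept, which gave 20 probe sets out of 45101 on the array.

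As background, Sox7, Sox17 and Sox18 share a DNA-binding HMG box and act together in the formation of arteries, veins and lymphatic vessels. Erg, Fli1 and Ets1 share the ETS domain, which binds DNA at a GGAA core, and they drive many genes that are typical of endothelial cells. Tal1 binds DNA at E-boxes with E proteins such as Tcf3, Tcf4 and Tcf12, and Gata2 binds GATA sites. Lmo2 bridges Tal1 and GATA factors, and the LIM-domain-binding proteins Ldb1 and Ldb2 join such complexes to each other. Fli1, Ets1, Tal1, Gata2 and Lmo2 also work in blood cells and their progenitors, so their RNA in whole heart need not come from vessels alone.

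Values are the authors' deposited intensities on a linear scale, and differences are Cav1 knockout minus wild type on the scale of log2(intensity + 16) after quantile normalisation, which understates the change of dim probe sets. The test was limma with Benjamini-Hochberg adjustment over the 22519 brightest probe sets by mean, with a threshold of 0.05. A group was called near background when its mean log2 value was at or below 5.77, an intensity of 38.4, which is the 95th percentile of 83 probe sets for odour, pheromone and taste receptors. Levels of different probe sets are not compared, because each has its own sensitivity. The array check by Cav1 held, with intensities of 120, 104 and 101 in Cav1 knockout hearts, against 3745, 3869 and 4259 in wild-type hearts.

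Of the 20 probe sets, 16 passed the filter on low values, at least 1 for each of the 10 genes, and 4 did not. Sox7, Erg and Gata2 rose in Cav1 knockout hearts at 1 probe set each and Ldb2 rose at 2, while 11 tested probe sets did not pass and 0 fell. The count of 5 was 2 without knockout replicate 1 or knockout replicate 2, and 3 without wild-type replicate 3. Over all probe sets tested, 3.17% were called, 2.36% as higher and 0.813% as lower. At an unadjusted p under 0.05, limma had 11 of the 16 higher and 0 lower. No share over all probe sets is given for that looser limit, here or for the gene lists below. Counts at an unadjusted p thus stand without a comparison. The median difference of the 16 tested probe sets was 0.26 on the log2 scale, beside -0.0096 over all 22519, and all 16 differences were above 0, beside 46.9% over all. Hearts of the 2 groups did not overlap at 11 of the 16, all with knockout higher, beside 12.3% of all tested probe sets with knockout higher and 14.0% with knockout lower. The genes were chosen with earlier results of these data known. How far these contrasts with all probe sets follow from that choice was not tested. The filter uses the mean over all hearts, so a probe set can pass it by its level in 1 group alone. Of the 5 called, Ldb2 1439557_s_at lay near background in wild-type hearts and passed the filter by its level in knockout hearts. Without a filter, 4 of the 20 were called, all higher, beside 1.16% of all 45037 probe sets in either direction and 0.933% as higher, and the median difference of the 20 was 0.25, beside -0.0056 over all.

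**Figure D1:**
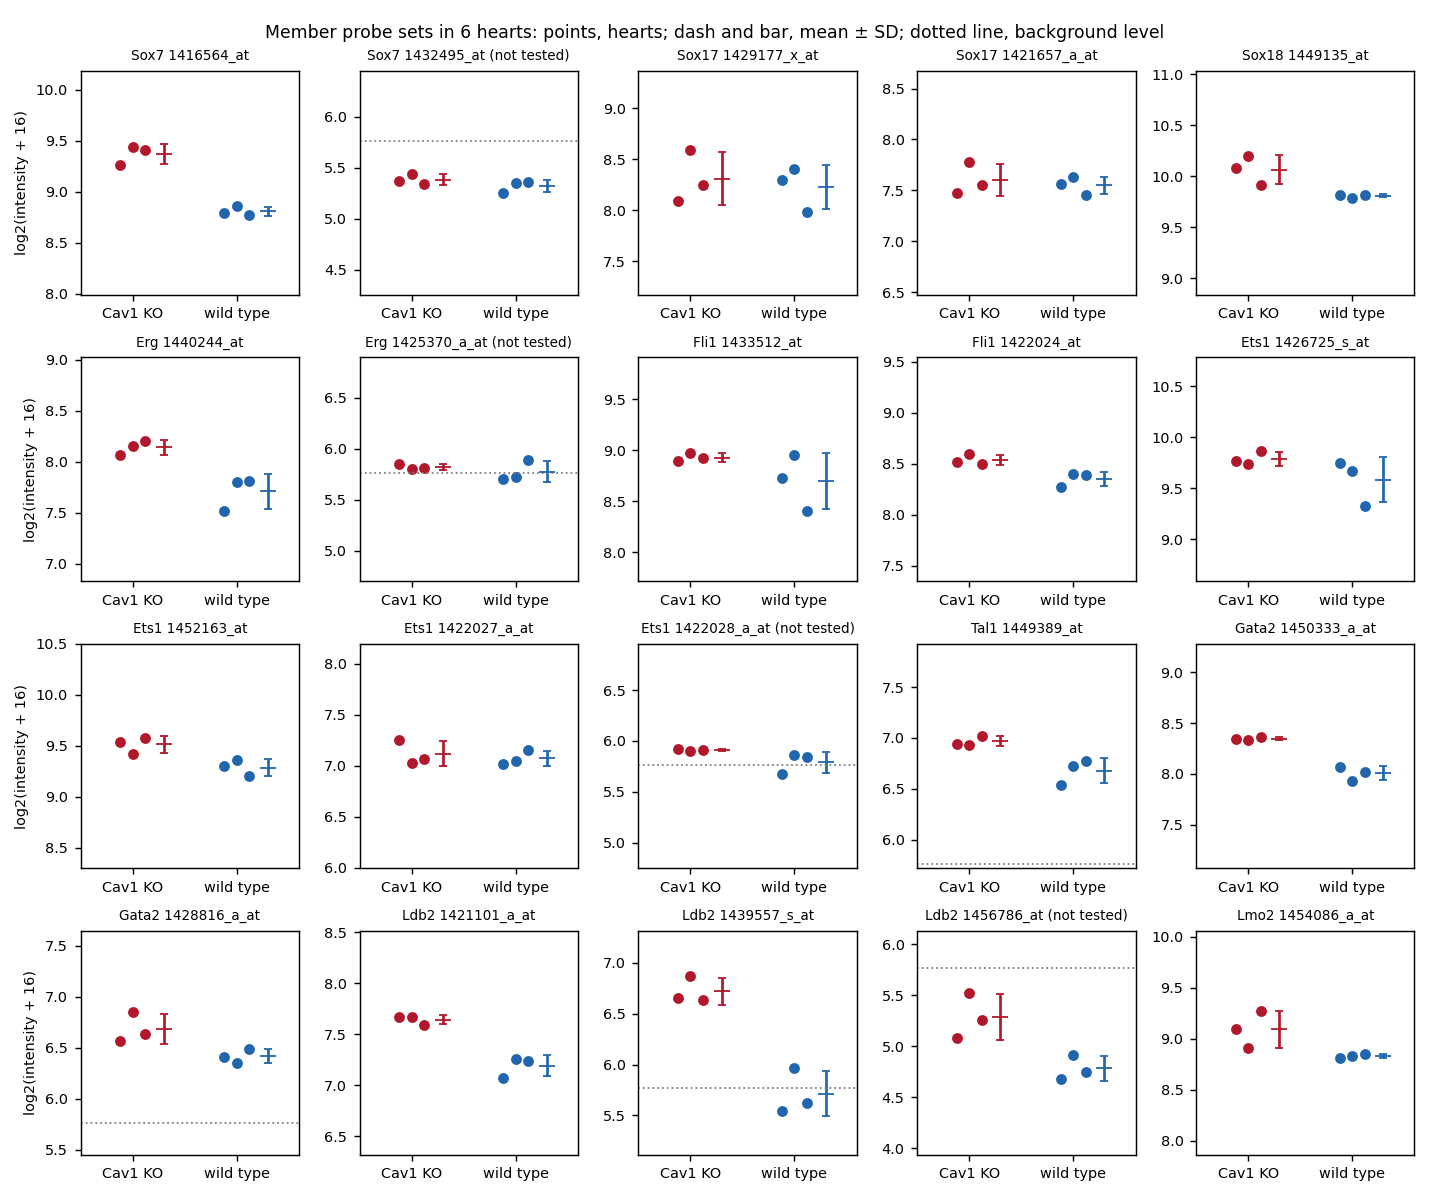
Log2(intensity + 16) of each of the 20 probe sets in 3 Cav1 knockout hearts (red, left) and 3 wild-type hearts (blue, right), with the mean ± SD beside the points; every panel spans the same range of log2 values, and the dotted line is the background level of 5.77 where it lies in the panel. Red points lie above all blue points for Sox7 1416564_at, Erg 1440244_at, both Gata2 probe sets and all 3 Ldb2 probe sets, and overlap with them for both Sox17 probe sets.

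Ldb2 encodes a LIM-domain-binding adaptor that holds no DNA-binding domain of its own and joins LIM-only and LIM-homeodomain proteins into larger complexes. Its brightest probe set, 1421101_a_at, had intensities of 192, 195 and 179 in Cav1 knockout hearts, against 113, 139 and 132 in wild-type hearts. The lowest knockout heart was well above the highest wild-type heart, and the difference was 0.45 (SE 0.070, 95% interval 0.29 to 0.61, limma adjusted p = 0.0124). That call was lost without knockout replicate 1 or knockout replicate 2 (limma adjusted p = 0.0763 and 0.0638). A second probe set, 1439557_s_at, stood at 85.3, 103 and 83.7 in Cav1 knockout hearts, against 32.5, 46.1 and 33.6 in wild-type hearts. All 3 knockout hearts were high and the groups were far apart, with a difference of 1.00 (SE 0.12, 95% interval 0.74 to 1.27, limma adjusted p = 0.00349). The wild-type mean of this probe set, 5.71 on the log2 scale, lay near background and below 5.92, the lowest mean of any tested probe set, so it passed the filter by its level in knockout hearts. Its difference was 0.61 with a pseudocount of 64 and 1.27 with a pseudocount of 1, past the threshold with both.

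The third Ldb2 probe set, 1456786_at, was too dim to be tested and lay near background in both groups. It read 17.5, 29.2 and 22.1 in Cav1 knockout hearts, against 10.2, 14.0 and 11.1 in wild-type hearts, a difference of 0.51 with groups that did not overlap. With no filter its limma adjusted p was 0.0507, and with the upper 75% of probe sets it was 0.0477. Ldb2 was thus higher in all 3 knockout hearts than in any wild-type heart at each of its 3 probe sets. Of these, only 1421101_a_at lay above background in both groups. The suffix _s marks a probe set whose probes match more than 1 transcript, so the larger difference at 1439557_s_at and the smaller one at 1421101_a_at need not read the same RNA.

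Lmo2, the LIM-only bridging protein of the Tal1 and GATA complexes, has 1 probe set, 1454086_a_at. It stood at 544, 482 and 607 in Cav1 knockout hearts, against 396, 449 and 441 in wild-type hearts. The wild-type hearts lay close together and below every knockout heart, while the knockout hearts spread widely. Its difference of 0.26 (SE 0.083, 95% interval 0.071 to 0.45) did not pass the test (limma adjusted p = 0.137).

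Among the SoxF factors, the Sox7 probe set 1416564_at had the smallest p of all 20 probe sets. Its intensities were 614, 695 and 669 in Cav1 knockout hearts, against 391, 457 and 418 in wild-type hearts. The groups lay far apart, and the difference was 0.56 (SE 0.060, 95% interval 0.43 to 0.70, limma adjusted p = 0.00255). The second Sox7 probe set, 1432495_at, lay near background in both groups, at 24.8, 26.6 and 24.4 in Cav1 knockout hearts and at 23.8, 24.4 and 25.5 in wild-type hearts. It was not tested, and its hearts overlapped.

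Sox18, known for its role in lymphatic and vascular development, stood at 1082, 1185 and 958 at 1449135_at in Cav1 knockout hearts, against 817, 881 and 893 in wild-type hearts. All 3 knockout hearts were higher than the wild-type hearts, and their log2 values had an SD of 0.14 in Cav1 knockout and 0.016 in wild type (n = 3 each). The difference of 0.26 (SE 0.067, 95% interval 0.11 to 0.41) did not pass (limma adjusted p = 0.0813). Without knockout replicate 3, the lowest of the knockout hearts, Sox18 passed at a difference of 0.33 (limma adjusted p = 0.0195). Sox17, a factor of arterial endothelium, had overlapping groups at both of its probe sets. At 1429177_x_at it read 264, 384 and 293 in Cav1 knockout hearts, against 273, 328 and 234 in wild-type hearts. At 1421657_a_at it read 165, 212 and 174 in Cav1 knockout hearts, against 161, 185 and 157 in wild-type hearts. Knockout replicate 2 was the highest heart at both. The differences were 0.083 (95% interval -0.23 to 0.40) and 0.053 (95% interval -0.15 to 0.25), with limma adjusted p of 0.759 and 0.761. Both turned below 0 without knockout replicate 2, at -0.057 and -0.036.

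Among the ETS factors, Erg passed at 1 of 2 probe sets. Erg, a factor that endothelial cells hold at a steady high level, had intensities of 259, 279 and 282 at 1440244_at in Cav1 knockout hearts, against 155, 210 and 206 in wild-type hearts. Wild-type replicate 1 was clearly the lowest heart, and the groups did not overlap. The difference was 0.43 (SE 0.088, 95% interval 0.23 to 0.63, limma adjusted p = 0.0370). The call was narrow: it was lost with no filter (limma adjusted p = 0.0516), without the trend (limma adjusted p = 0.0593) and without any 1 of the knockout hearts or wild-type replicate 3 (limma adjusted p = 0.102, 0.132, 0.0983 and 0.0684). The second Erg probe set, 1425370_a_at, was too dim to be tested and read 41.3, 39.1 and 40.3 in Cav1 knockout hearts, against 37.8, 36.4 and 43.7 in wild-type hearts, with groups that overlapped.

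Fli1, a close relative of Erg that endothelial and blood cells share, had differences of 0.23 (95% interval -0.031 to 0.50) at 1433512_at and 0.18 (95% interval 0.051 to 0.32) at 1422024_at. Neither passed, with limma adjusted p of 0.298 and 0.135. At 1433512_at the hearts read 472, 505 and 473 in Cav1 knockout, against 373, 487 and 321 in wild type, so wild-type replicate 2 lay among the knockout hearts. At 1422024_at they read 360, 384 and 347 in Cav1 knockout, against 269, 327 and 315 in wild type, and the groups did not overlap. Fli1 was thus separated between the groups at 1 of its 2 probe sets, and both readings had wild-type replicate 2 as the highest wild-type heart.

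Ets1, which lymphocytes as well as endothelial cells express, has 4 probe sets, of which 0 passed. At 1426725_s_at the hearts read 871, 860 and 916 in Cav1 knockout, against 779, 811 and 628 in wild type, a difference of 0.20 (limma adjusted p = 0.283). On the log2 scale used for the test, wild-type replicate 1 overlapped with the knockout hearts there. At 1452163_at they read 747, 689 and 752 in Cav1 knockout, against 570, 652 and 568 in wild type, with no overlap. This difference of 0.23 (SE 0.061, limma adjusted p = 0.0879) passed with array weights (limma adjusted p = 0.0495). The dimmer 1422027_a_at read 140, 117 and 119 in Cav1 knockout hearts, against 108, 117 and 124 in wild-type hearts, and overlapped. Its difference of 0.043 (limma adjusted p = 0.783) turned to -0.026 without knockout replicate 1. The dimmest, 1422028_a_at, was not tested and stood at 44.1, 43.1 and 44.2 in Cav1 knockout hearts, against 36.7, 41.6 and 41.6 in wild-type hearts.

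Gata2, a zinc-finger factor of endothelial cells, blood progenitors and mast cells, had close replicates at 1450333_a_at. Its intensities were 317, 319 and 316 in Cav1 knockout hearts, against 232, 233 and 239 in wild-type hearts. The groups lay far apart for their spread, and the difference was 0.34 (SE 0.057, 95% interval 0.21 to 0.47, limma adjusted p = 0.0172). At the dimmer 1428816_a_at it read 79.4, 102 and 84.3 in Cav1 knockout hearts, against 68.2, 65.8 and 73.0 in wild-type hearts. All 3 knockout hearts were again the higher ones, and the difference of 0.27 (SE 0.087, 95% interval 0.074 to 0.47) did not pass (limma adjusted p = 0.138). The call at 1450333_a_at was lost without any 1 of the knockout hearts (limma adjusted p = 0.0901, 0.0763 and 0.0523 for replicates 1 to 3) and without wild-type replicate 3 (0.0613). Gata2 is the only one of the 10 genes on the chromosome of Cav1, chromosome 6, and it does not lie within 10 Mb of Cav1 in the RefSeq table of GRCm38.p6.

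Tal1, the helix-loop-helix factor of blood and vessel progenitors, has 1 probe set, 1449389_at. It read 109, 109 and 115 in Cav1 knockout hearts, against 75.6, 90.5 and 91.8 in wild-type hearts. The groups did not overlap, wild-type replicate 1 was the lowest heart, and the difference of 0.29 (SE 0.078, 95% interval 0.11 to 0.47) did not pass (limma adjusted p = 0.0890).

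**Figure D2:**
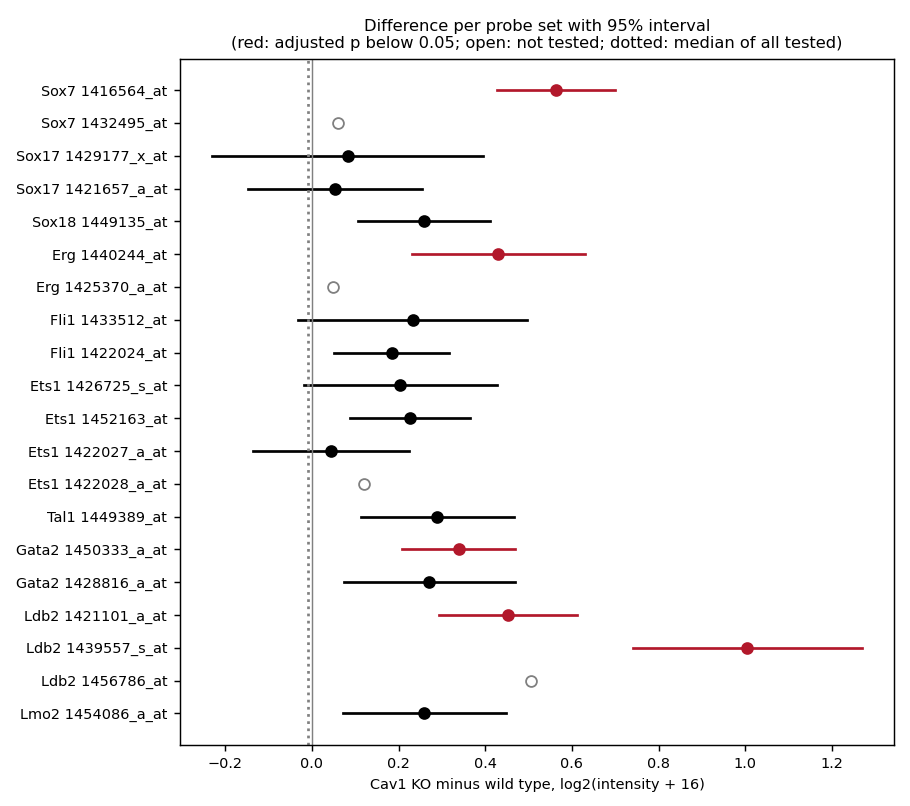
Difference between Cav1 knockout and wild-type hearts on the log2(intensity + 16) scale for the 20 probe sets, with limma's 95% interval for the 16 that were tested; red marks an adjusted p below 0.05, open circles the 4 that were not tested, and the dotted line the median of all tested probe sets. The 5 red intervals run from 0.21 at their lowest end to 1.27 at their highest.

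RefSeq promoter sequences of GRCm38.p6 were at hand for 3 of the 10 genes, Erg, Gata2 and Tal1, with 7 start sites in all. The 250 bases before the 5′-most start of each are shown because these 3 genes were read above and because factors of the families described here bind such stretches; capitals mark the ETS core GGAA and the GATA core GATAA on either strand.
Erg, chr16:95586594-95586843, minus strand: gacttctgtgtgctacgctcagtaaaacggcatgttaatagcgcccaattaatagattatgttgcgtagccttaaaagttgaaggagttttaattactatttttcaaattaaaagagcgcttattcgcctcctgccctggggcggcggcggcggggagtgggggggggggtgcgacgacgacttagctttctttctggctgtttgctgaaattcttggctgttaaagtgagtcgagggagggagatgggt
Gata2, chr6:88193641-88193890, plus strand: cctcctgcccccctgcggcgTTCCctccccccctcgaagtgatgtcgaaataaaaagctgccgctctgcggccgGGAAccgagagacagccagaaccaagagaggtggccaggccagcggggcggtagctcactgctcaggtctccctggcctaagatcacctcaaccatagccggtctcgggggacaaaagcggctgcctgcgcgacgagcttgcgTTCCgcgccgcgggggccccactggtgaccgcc
Tal1, chr4:115056176-115056425, plus strand: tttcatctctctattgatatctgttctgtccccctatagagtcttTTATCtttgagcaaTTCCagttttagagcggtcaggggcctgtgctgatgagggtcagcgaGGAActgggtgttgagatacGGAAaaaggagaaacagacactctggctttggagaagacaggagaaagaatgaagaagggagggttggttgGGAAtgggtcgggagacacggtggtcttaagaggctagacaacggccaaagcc
The Tal1 window held 4 ETS cores and 1 GATA core, the Gata2 window 3 ETS cores and no GATA core, and the Erg window no match to either. Of the 32851 RefSeq windows of 250 bases, 93.4% held at least 1 GGAA, 54.7% at least 3 and 33.4% at least 4, while 22.6% held a GATAA. Before the other start sites, Erg had 2 and 4 ETS cores, Gata2 had 1 and Tal1 had 3, and the Erg window with 2 ETS cores also held 1 GATA core. The SOX core ACAAT, found in 27.7% of all windows, and the E-box CANNTG, in 66.2%, were each matched in the Erg window chr16:95459349-95459598, with 1 and 2 matches, and in none of the other 6 windows. The matches are letters in a window, and the arrays measured no binding.

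The partners of these factors were read next, each at its brightest probe set. Read that way, 4.02% of 11486 genes were called, 2.97% as higher and 1.05% as lower. Of 14 genes of the LIM complexes, 12 were tested, 1 rose, 0 fell and 11 did not pass, with a median difference of 0.054 beside -0.014 over all genes. At an unadjusted limma p under 0.05, 2 of the 12 tested were higher, the called one included, and 2 were lower. The gene that rose was Tcf4, an E protein that pairs with Tal1, by 0.22 (SE 0.048, limma adjusted p = 0.0444). It stood at 850, 827 and 774 in Cav1 knockout hearts, against 633, 684 and 701 in wild-type hearts, and was called at 1 of its 6 probe sets. That call did not hold with the intensities as deposited (limma adjusted p = 0.0588), and leaving out any 1 heart ended it. Tcf12, another E protein, had a difference of 0.17 (limma adjusted p = 0.115).

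Ldb1, the widely expressed relative of Ldb2, had no rise. It read 287, 297 and 330 in Cav1 knockout hearts, against 306, 340 and 332 in wild-type hearts, a difference of -0.16 (SE 0.067, limma adjusted p = 0.230). Ssbp2, a single-stranded-DNA-binding protein that attaches to LIM-domain-binding proteins, had -0.15 (SE 0.047, limma adjusted p = 0.125). After normalisation the knockout hearts lay below the wild-type hearts with no overlap for both genes, the opposite order to Ldb2, while the intensities as deposited overlapped for Ldb1 and for Ssbp2 (Ssbp2: 635, 600 and 611 in Cav1 knockout, against 629, 670 and 674 in wild type).

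Of 28 other regulators of blood and lymphatic vessels, 26 were tested, 3 rose, 0 fell and 23 did not pass, with a median difference of 0.10 beside -0.014 over all genes. At an unadjusted limma p under 0.05, 8 of the 26 tested were higher, the 3 called ones included, and 0 were lower. Elk3, an ETS-domain factor with a role in vessel growth, rose by 0.48 (SE 0.059, limma adjusted p = 0.00425). It stood at 605, 603 and 585 in Cav1 knockout hearts, against 357, 456 and 405 in wild-type hearts, and it was called at each of its 3 tested probe sets. Foxc2, a forkhead factor of lymphatic valves, rose by 0.43 (SE 0.066, limma adjusted p = 0.0120), or by 0.26 with a pseudocount of 64. Its relative Foxc1 rose by 0.40 (SE 0.076, limma adjusted p = 0.0279), and by 0.59 at its dimmer probe set (limma adjusted p = 0.0174). Without knockout replicate 1 or knockout replicate 2, only Elk3 of these 3 passed, and Foxc1 did not pass without knockout replicate 3, wild-type replicate 2 or wild-type replicate 3 either (limma adjusted p = 0.0618, 0.0548 and 0.102). Bcl6b, a repressor expressed in endothelium, had 0.48 (SE 0.11, limma adjusted p = 0.0578) and passed with the intensities as deposited (limma adjusted p = 0.0434). Meox2, a homeobox factor of heart endothelium, chosen after its values were seen, rose by 0.32 at its dimmer probe set (limma adjusted p = 0.0406), while the brighter one had 0.46 and a limma adjusted p of 0.0586.

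Some markers of endothelial cells were higher in the same hearts. Of 18 tested, 8 rose, 0 fell and 10 did not pass, with a median difference of 0.21. At an unadjusted limma p under 0.05, 12 of the 18 tested were higher, the 8 called ones included, and 1 was lower. The count was 5 without knockout replicate 2, wild-type replicate 2 or wild-type replicate 3. Cd34, a surface sialomucin, rose by 0.54, Pecam1, an adhesion protein of cell contacts, by 0.71, Ramp2, a receptor partner for adrenomedullin, by 0.45, the receptors Tek by 0.49 and Tie1 by 0.42, and the adhesion protein Icam2 by 0.27 (limma adjusted p from 0.000818 to 0.0232). Robo4, chosen after its values were seen, had a difference of the opposite sign, with 228, 214 and 192 in Cav1 knockout hearts, against 223, 238 and 261 in wild-type hearts (-0.25, limma adjusted p = 0.120). Others of the 10 that did not pass were Egfl7, at 0.24, Cdh5, at 0.13, Flt1, at 0.084, and Kdr, at -0.039. Their limma adjusted p were 0.128, 0.301, 0.540 and 0.803. The summed intensity of the 18 ran from 11746 to 13214 in Cav1 knockout hearts, against 9358 to 10055 in wild-type hearts. Such sums, here and below, use the deposited intensities before normalisation, and bright genes weigh most in them. In whole tissue, more endothelial cells and more RNA per cell cannot be told apart.

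Markers of some other cell types moved too. Of 13 tested macrophage and monocyte markers 6 rose and 0 fell, among them Cd14, a receptor for bacterial lipopolysaccharide, by 0.44 and Ptprc, the leukocyte antigen CD45, by 0.75, and their summed intensity was 8480 to 9067 in Cav1 knockout hearts, against 6600 to 7643 in wild-type hearts. Of 6 lymphatic endothelial markers 3 rose, among them Lyve1, a hyaluronan receptor, by 1.04 and Mmrn1 by 0.81, with sums of 1423 to 1653 in Cav1 knockout hearts, against 899 to 1150 in wild-type hearts. Reln, at 0.36, Pdpn, at 0.19, and Prox1, at 0.026, did not pass. Of 8 fibroblast markers 3 rose, among them Col1a1 by 0.51 and Col3a1 by 0.65, with sums of 13043 to 15466 in Cav1 knockout hearts, against 10911 to 11773 in wild-type hearts. Lum, at 0.25, Pdgfra, at 0.12, Ddr2 and Dcn, each at 0.10, and Tcf21, at 0.045, did not pass. At an unadjusted limma p under 0.05, 12 of the 13 tested macrophage and monocyte markers were higher, and 0 were lower. The same limit gave 4 of 6 lymphatic and 4 of 8 fibroblast markers higher and 0 lower. All 13 tested macrophage and monocyte markers had groups that did not overlap, with knockout higher, beside 1544 of 11486 genes. The part of macrophages and monocytes, lymphatic endothelium and fibroblasts in the rises of Sox7, Erg, Gata2 and Ldb2 was not tested.

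Among lymphocyte markers 5 of 10 on the array were too dim to be tested and 0 of the other 5 passed, with sums of 274 to 326 in Cav1 knockout hearts, against 290 to 345 in wild-type hearts. Of 8 mast cell markers 4 were too dim, and 0 of the other 4 passed (sums of 206 to 251 in Cav1 knockout hearts, against 193 to 228 in wild-type hearts). Of 8 tested erythroid and megakaryocyte markers 0 passed, with sums of 2307 to 2615 in Cav1 knockout hearts, against 2241 to 2821 in wild-type hearts, and Gata1, the red cell factor, was too dim to be tested. Mural cell markers had 0 of 8 past the threshold, with sums of 14569 to 14743 in Cav1 knockout hearts, against 13703 to 14178 in wild-type hearts. These sums did not overlap, while the normalised means of the mural list did, with a difference of 0.015. Cardiomyocyte markers, which identify the tissue, were bright in every heart, with 0 of 8 past the threshold and sums of 134300 to 136680 in Cav1 knockout hearts, against 135710 to 137950 in wild-type hearts. Fat cell markers varied between hearts of a group, with sums of 209 to 582 in Cav1 knockout hearts, against 489 to 2122 in wild-type hearts, and 0 of 4 passed. At an unadjusted limma p under 0.05, these lists had 0 lymphocyte markers, 2 mast cell markers (both higher), 1 higher and 1 lower among erythroid and megakaryocyte markers and again among mural cell markers, 0 cardiomyocyte markers and 3 fat cell markers (all lower).

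**Figure D3:**
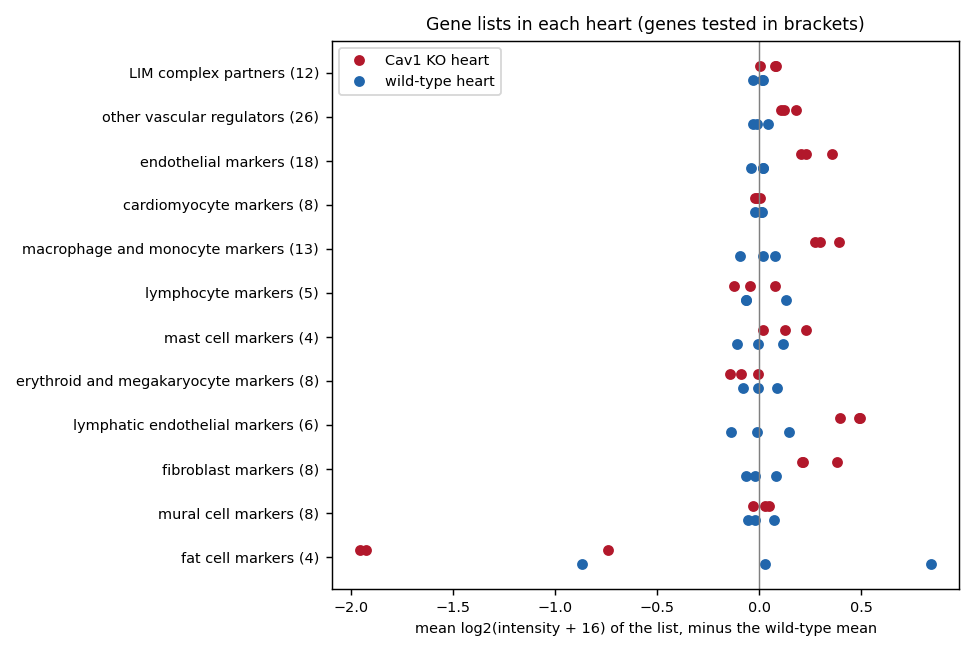
Mean log2(intensity + 16) of each gene list in each heart, minus the wild-type mean of that list; Cav1 knockout hearts are red and above, wild-type hearts blue and below, and the number of genes tested stands in brackets. The 3 knockout hearts lie above the 3 wild-type hearts for endothelial, macrophage, lymphatic and fibroblast markers and for the other vascular regulators, and the fat cell markers spread most.

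Set against the mean of the 18 endothelial markers in the same heart, most of the factors no longer separated the groups. Relative to that mean, the difference was 0.74 for Ldb2 at 1439557_s_at, 0.19 for Ldb2 at 1421101_a_at, 0.30 for Sox7 and 0.17 for Erg at 1440244_at. Ldb2 at 1439557_s_at stayed clearly apart, but its wild-type mean lay near background, so the size of that difference is uncertain. Ldb2 at 1421101_a_at and Sox7 were apart by a bare margin: the lowest knockout heart and the highest wild-type heart stood at -1.69 and -1.70 for Ldb2, and at -0.096 and -0.098 for Sox7. Erg overlapped. Gata2, at 0.074 and 0.0066, Tal1, at 0.026, Lmo2, at -0.0046, and Sox18, at -0.0056, lay close to 0 with overlap. Fli1 had -0.031 and -0.080, and Ets1 had -0.060 and -0.038 at its brighter probe sets. Sox17 had -0.18 and -0.21 with overlap, and the dimmest tested probe set of Ets1, 1422027_a_at, had -0.22 with knockout hearts lower and no overlap. The mean of the 18 markers differed by 0.26 between the groups, but single markers ran from -0.25 for Robo4 to 0.72 for Cldn5. The relative differences thus depend on which markers are averaged. They are given as a description and were not tested.

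**Figure D4:**
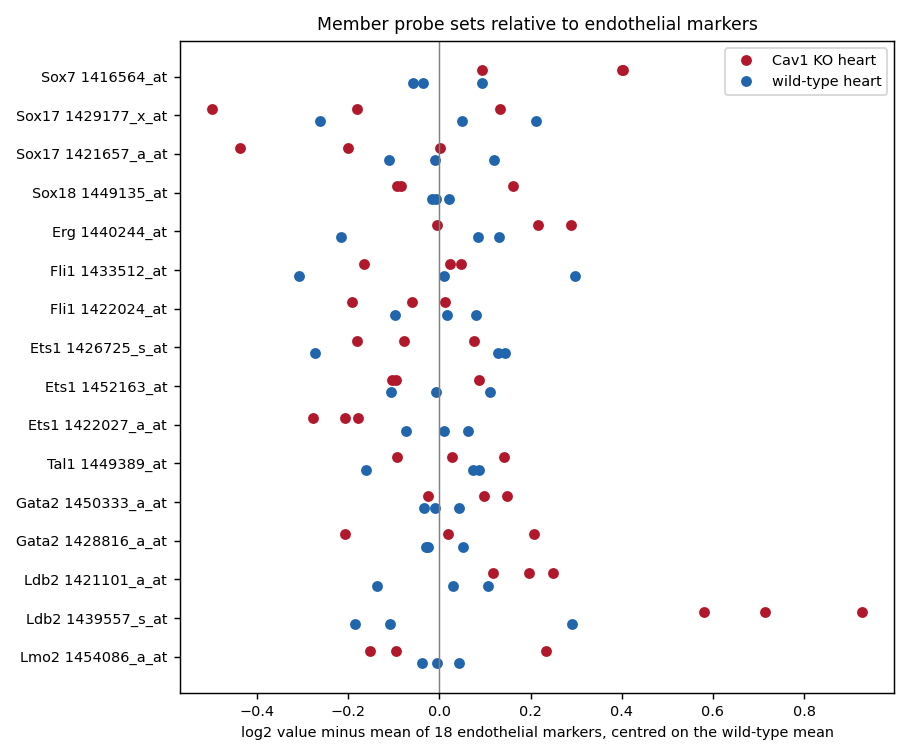
Log2 value of each of the 16 tested probe sets minus the mean of 18 endothelial markers in the same heart, centred on the wild-type mean; Cav1 knockout hearts are red and above, wild-type hearts blue and below. Red points lie to the right of all blue points for Ldb2 1439557_s_at and, narrowly, for Ldb2 1421101_a_at and Sox7, and to the left for Ets1 1422027_a_at.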

How the data were processed

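RNA of 6 hearts was measured on Affymetrix mouse arrays. Per the labels' protocols, 2 ug of total RNA extracted with Trizol was made into biotin-labelled RNA, and GCOS 1.4 is named, with no role, in the submitters' processing notes. The authors deposited 1 linear intensity per probe set and array. Their background correction, scaling and summary over probes are not given in the sources used here. Some exact values recur between arrays, such as 21908 for Myl2 in knockout replicates 1 and 3 and wild-type replicates 1 and 2. Whether the intensities had already been normalised between arrays was not tested. Arrays had a median intensity between 43.9 and 45.8. The mean after trimming 2% at each end was lowest in wild-type replicate 1, at 155, against 163 to 168 in the other arrays. Because the arrays' trimmed means (2% at each end) differed by 8.42%, above a limit of 5%, the intensities were quantile normalised after leaving out 64 control probe sets, and log2(intensity + 16) was fitted with limma 3.58.1 in R 4.3.3 (lmFit, eBayes with trend, no covariate). The upper 50% by mean, 22519 probe sets, were tested, with Benjamini-Hochberg adjustment over all of them. Precision is limited by having 3 arrays a group.

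The platform annotation named 34945 probe sets with 1 symbol. Lists used the brightest probe set per gene. Named were all probe sets of the 10 genes, called genes of the partner and regulator lists (filled up to 4 by smallest p), up to 6 endothelial markers and up to 2 of other marker lists. Endothelial, lymphatic and fibroblast markers named as not passing were added after their values were seen. The genes and lists were chosen with earlier results of these data known. The fit was tested on simulated data.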

Additional observations from a re-analysis of the deposited data

How the results depend on the processing

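The 5 member calls were 5 with the intensities as deposited, with median centring and with a pseudocount of 1 or 64, 6 with the upper 75% of probe sets or array weights, 4 with no filter or without the trend, and 2 to 5 when 1 heart was left out: 2 without knockout replicate 1 or knockout replicate 2, and 3 without wild-type replicate 3. Sox7 and Ldb2 at 1439557_s_at passed under all of these settings, with limma adjusted p from 0.00146 to 0.0188 and from 0.00118 to 0.0225. Ldb2 at 1421101_a_at did not pass without knockout replicate 1 or knockout replicate 2 (limma adjusted p = 0.0763 and 0.0638). Differences that were not called changed sign for Ets1 1422027_a_at without knockout replicate 1 (-0.026, with a highest value of 0.088 when another heart was left out), for Sox17 without knockout replicate 2 (-0.057 at 1429177_x_at and -0.036 at 1421657_a_at, with highest values of 0.19 and 0.12), and for Sox17 1429177_x_at without wild-type replicate 3 (-0.038). The cause of these changes was not tested. Over all tested probe sets, 714 calls became 411 without the trend, 1171 with array weights and 189 to 749 with 1 heart left out; 74.4% of the calls were higher as quantile normalised, 90.9% as deposited and 93.5% with median centring. The single call among LIM complex partners, Tcf4, became 0 as deposited, with median centring, with the upper 75%, with no filter, without the trend and in each fit without 1 heart (0 to 0). Left-out hearts gave 1 to 3 calls among the other vascular regulators and 5 to 7 among endothelial markers; these settings for the lists were added after seeing the data. The number of member probe sets near background in both groups, 2, was also 2 at the 90th percentile of the receptor probe sets. No paired analysis was possible because the knockout titles carry no replicate number shared with the wild-type titles. Signal close to background limits what can be said of Ldb2 1456786_at and of Sox7 1432495_at. It also limits Ldb2 1439557_s_at, which was near background in wild-type hearts and passed the main filter by its level in knockout hearts. The 3 arrays a group limit all calls.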
